A study of Mus musculus with 6 samples.

Results

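Basement membrane and hemidesmosome genes of the neonatal mouse prostate were examined in LSC cells that carry GFP and LSC cells that do not. They are 37 genes chosen by name from general knowledge of this matrix, with earlier results of these data known. They are listed under 38 names because Lamb1 may be printed as Lamb1-1. The array, with 36163 gene names and 55681 probes, carried all 37 on 53 probes. LSC cells are the Lin- Sca-1+ CD49f+ cells of the prostate, a fraction that holds basal epithelial cells. They were sorted from the prostates of untreated male FVB/N mice at postnatal day 6, and each population was collected as 3 independent samples, with 1 array each. All mice carried the Tg 11.5kb-GFP transgene, in which the s-SHIP promoter drives GFP, so both populations shared the genotype and were parted by the GFP signal of the sorted cells. The same promoter also labels vascular smooth muscle cells of this tissue, and CD49f, the product of Itga6, is itself a receptor for laminin and was a gate of the sort. The sources used here do not give how many mice made up a sample.

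The basement membrane is the thin sheet of matrix on which an epithelium rests. It is built from a laminin network and a collagen IV network, which nidogens, perlecan, agrin and other linkers tie together. Basal cells grip the sheet through hemidesmosomes, in which collagen XVII, the integrin made of Itga6 and Itgb4, plectin and dystonin join the laminin outside to keratin filaments inside, and syndecans and dystroglycan bind the same matrix as further receptors. In a growing gland, the surrounding mesenchyme and smooth muscle secrete many of the same chains as the epithelium does.

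LSC GFP+ and LSC GFP- cells differed in 12 of these genes, in both directions. Signals were higher in LSC GFP+ cells for Smoc2, Col17a1, Col4a2, Col4a1, Lamb3, Lama3 and Sdc1, by 1.56-fold to 2.52-fold. They were lower for Nid2, Nid1, Lama2, Lama1 and Npnt, by 1.34-fold to 3.85-fold, where the 2 largest values, those of Nid1 and Nid2, came to 2.30-fold and 1.89-fold with normexp background correction. Each gene was read at its brightest tested probe, on a log2 scale relative to the 75th percentile of its array, and was called where the moderated test of limma gave a p under 0.05 before adjustment. Of the 35 genes with a tested probe, 7 (20.0%) were called higher and 5 (14.3%) lower, against 3.39% higher and 4.29% lower of the 25545 genes tested at their brightest probe over the whole array. All 3 LSC GFP+ arrays lay above all 3 LSC GFP- arrays for 9 of the 35 genes (25.7%) and below them for 8 (22.9%), against 6.51% and 5.37% of all genes. The median log2 difference was 0.02 over the 35 genes and -0.01 over all genes. None of the 35 passed Benjamini-Hochberg adjustment over all probes, the lowest adjusted p being 0.129 for Smoc2, and an exact two-sided permutation test of 3 against 3 arrays cannot give a p below 0.1. Over the array, 2925 probes (7.90%) passed the unadjusted threshold and 1 passed after adjustment, and the replicate number as a block raised the first count to 5480 and gave 0 after adjustment. Among those 2925 probes 42.7% were higher in LSC GFP+ cells, against 53.1% of the calls after scaling by the array median. These genes were chosen with earlier results of these data known, so their shares beside those of all genes are a description and not a test. Col4a1, Col4a2 and Sdc1 were also named by the study on these same samples, so their direction here is not independent evidence. In RNA of a sorted population, fewer cells of a type and less RNA per cell cannot be told apart.

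**Figure D1:**
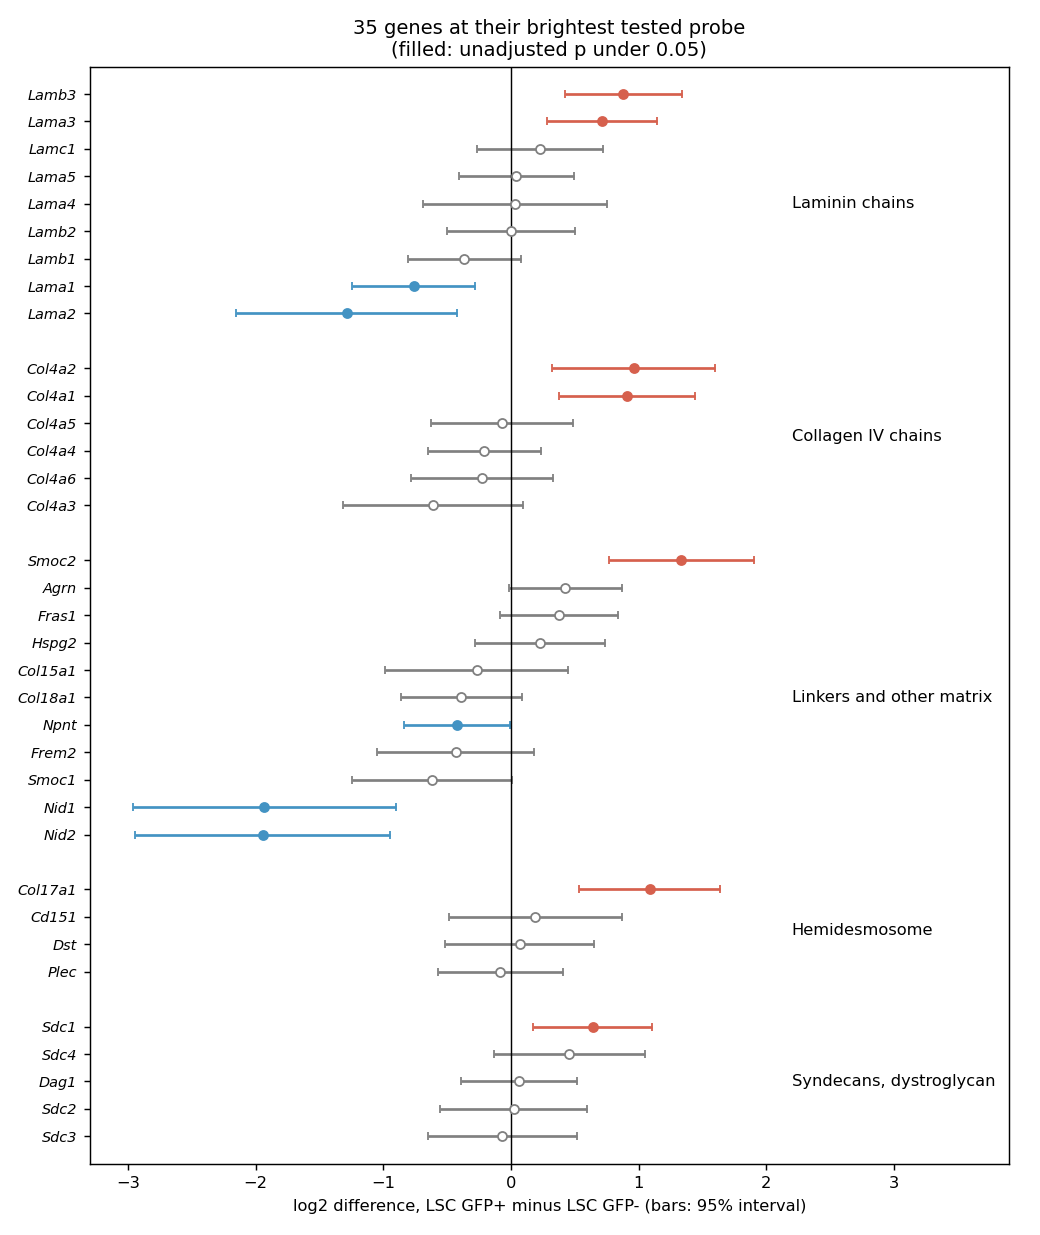
Log2 difference of the 35 tested genes at their brightest tested probe (x axis, LSC GFP+ minus LSC GFP-), grouped by class, with 95% intervals from limma. Filled red points are the 7 genes called higher, filled blue points the 5 called lower, and open grey points the other 23, which lie between -0.62 and 0.46.

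The promoters of 5 called genes are shown so that those of genes that rose can be read beside those of genes that fell. RefSeq windows of the assembly GRCm38.p6 were at hand for 25 of the 37 genes and 8 of the 12 called ones. The 250 bases before the annotated start farthest upstream were searched on both strands for 4 motifs, with matches in capitals. These were the AP-1 site (TGANTCA), the GC box (GGGCGG), the CCAAT box (CCAAT) and the TATA box (TATAAA). Lamb3 and Npnt each had 2 windows, and the one farther downstream was not searched. The windows of Col17a1, Lamb3 and Sdc1, all higher in LSC GFP+ cells, read 5′ to 3′ as follows.
Col17a1, chr19:47692043-47692292, minus strand: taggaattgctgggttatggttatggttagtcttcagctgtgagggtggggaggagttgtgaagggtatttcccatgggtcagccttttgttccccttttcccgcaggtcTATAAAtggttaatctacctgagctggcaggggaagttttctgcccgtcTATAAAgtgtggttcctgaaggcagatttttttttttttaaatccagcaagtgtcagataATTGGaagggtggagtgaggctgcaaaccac
Lamb3, chr1:193301744-193301993, plus strand: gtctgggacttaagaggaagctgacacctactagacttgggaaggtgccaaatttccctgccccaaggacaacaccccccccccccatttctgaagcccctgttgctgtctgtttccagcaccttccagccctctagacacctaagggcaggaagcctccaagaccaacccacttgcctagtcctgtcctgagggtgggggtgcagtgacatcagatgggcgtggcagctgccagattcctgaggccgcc
Sdc1, chr12:8771146-8771395, plus strand: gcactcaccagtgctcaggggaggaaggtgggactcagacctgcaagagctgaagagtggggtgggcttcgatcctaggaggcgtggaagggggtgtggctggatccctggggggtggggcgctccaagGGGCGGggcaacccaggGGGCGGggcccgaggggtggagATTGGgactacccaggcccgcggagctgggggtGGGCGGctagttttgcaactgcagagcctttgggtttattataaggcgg
The windows of Lama2 and Nid1, both lower in LSC GFP+ cells, were these.
Lama2, chr10:27616943-27617192, minus strand: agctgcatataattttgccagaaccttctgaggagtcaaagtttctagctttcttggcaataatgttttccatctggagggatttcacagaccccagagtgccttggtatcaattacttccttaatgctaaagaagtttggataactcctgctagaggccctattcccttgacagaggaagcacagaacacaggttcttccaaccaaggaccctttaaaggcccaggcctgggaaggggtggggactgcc
Nid1, chr13:13437352-13437601, plus strand: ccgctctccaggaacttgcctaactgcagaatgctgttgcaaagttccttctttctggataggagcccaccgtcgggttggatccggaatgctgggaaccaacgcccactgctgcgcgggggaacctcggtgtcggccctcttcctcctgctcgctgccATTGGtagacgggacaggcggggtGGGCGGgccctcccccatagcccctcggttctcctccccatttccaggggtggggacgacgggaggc
The window of Col17a1 held 2 TATA boxes, beginning 140 and 91 bases before the start, and a reversed CCAAT box. The window of Sdc1 held 3 GC boxes and a reversed CCAAT box, and that of Nid1 held 1 of each. Neither Lamb3 nor Lama2 held any of the 4 motifs, and none of the 8 windows held an AP-1 site, which 6.7% of the 32851 windows in the table hold. The GC box stands in 32.7% of all windows, the CCAAT box in 33.8% and the TATA box in 12.4%. No motif searched stood in all 8 windows, and a match or its absence is a description of these letters only.

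Of the collagen IV chains, the pair that makes up the common network rose and the other 4 were not called. Col4a1 had log2 signals of 3.18, 3.18 and 2.73 on the LSC GFP+ arrays of replicates 1, 2 and 3 and 2.42, 1.96 and 1.98 on the LSC GFP- arrays. Col4a2 had 2.54, 2.49 and 1.90 in LSC GFP+ cells and 1.75, 1.01 and 1.29 in LSC GFP- cells. Neither gene showed any overlap between the populations, and LSC GFP+ replicate 3 was the lowest of its population. The log2 difference was 0.91 ± 0.23 (SE, adjusted p = 0.249) for Col4a1, a 1.88-fold change. It was 0.96 ± 0.27 (adjusted p = 0.322) for Col4a2, or 1.95-fold.

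Both genes lie head to head on chromosome 8, which is why the stretch that holds their starts is shown. Their annotated starts are 21 bases apart, Col4a1 being read to the left and Col4a2 to the right. The start of Col4a2 lies to the left of that of Col4a1, so the annotated transcripts overlap between the starts. The promoter window of each gene, among those searched above, lies on the transcribed side of the other. On the plus strand at chr8:11312801-11312830 (GRCm38.p6) the sequence, with the bases from the start of Col4a2 to that of Col4a1 in capitals, was as follows.
Col4a1 and Col4a2 starts: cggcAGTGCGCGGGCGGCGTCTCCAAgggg
The array read them far from this stretch, at chr8:11199009-11199068 for Col4a1 and chr8:11448840-11448899 for Col4a2 (mm9 positions of the array design).

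Col4a3 and Col4a4, neighbours on chromosome 1 whose chains belong to the network of the kidney filter, had log2 differences of -0.61 ± 0.30 (95% interval -1.32 to 0.09) and -0.21 ± 0.19 (-0.65 to 0.23). The Col4a3 probe was dim, with log2 signals of -4.76, -3.63 and -3.95 in LSC GFP+ cells and -3.31, -3.66 and -3.52 in LSC GFP- cells, and was not well above background on LSC GFP+ replicate 1. The other 2 probes of Col4a4 gave -0.45 and -0.35. Col4a5 and Col4a6, neighbours on chromosome X with annotated starts 1343 bases apart, gave -0.07 ± 0.24 (-0.63 to 0.49) and -0.23 ± 0.24 (-0.78 to 0.33), and their populations overlapped. Whether the difference of Col4a1 and Col4a2 exceeds that of the other chains was not tested.

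Col17a1, the transmembrane collagen of hemidesmosomes, was the called gene of that structure, at about the same fold as Col4a1 and Col4a2. Its log2 signal was 2.66, 2.69 and 2.15 in LSC GFP+ cells and 1.68, 1.38 and 1.19 in LSC GFP- cells (probe at chr19:47720894-47720953, mm9). The lowest LSC GFP+ array stood clear of the highest LSC GFP- array, and the log2 difference was 1.09 ± 0.24 (SE, adjusted p = 0.181), a 2.12-fold change. The other hemidesmosome genes were not called. Plec, the plakin that links the integrin to keratin, gave a log2 difference of -0.08 (95% interval -0.57 to 0.40). Cd151, a tetraspanin that partners laminin-binding integrins, gave 0.19 (-0.48 to 0.87). Dst, which encodes the plakin dystonin, gave 0.07 (-0.51 to 0.65) at its brightest probe and -0.72 (-1.45 to 0.00) at the other.

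Among the laminin chains, Lama3 and Lamb3, the alpha and beta chains of the epithelial laminin that hemidesmosomes bind, rose together. Lama3 had log2 signals of 2.42, 2.58 and 2.57 in LSC GFP+ cells and 1.76, 1.97 and 1.72 in LSC GFP- cells. Lamb3 had 1.89, 2.32 and 2.10 in LSC GFP+ cells and 1.14, 1.23 and 1.30 in LSC GFP- cells (probe at chr1:195170009-195170068, mm9). In both genes the gap between the populations was wider than the range within either. The log2 difference was 0.71 ± 0.19 (SE, adjusted p = 0.269) for Lama3, a 1.64-fold change. For Lamb3 it was 0.88 ± 0.20 (adjusted p = 0.190), or 1.84-fold.

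Lama2, the alpha chain typical of muscle and nerve basement membranes, and Lama1, an alpha chain of early epithelia, were lower in LSC GFP+ cells. Lama2 had log2 signals of -0.23, -1.08 and -1.08 in LSC GFP+ cells and 1.22, 0.11 and 0.13 in LSC GFP- cells (probe at chr10:26701380-26701439, mm9). Replicate 1 was the highest of the 3 in each population, and the populations did not overlap. The log2 difference was -1.28 ± 0.37 (SE, adjusted p = 0.334), which is 2.44-fold, and the second probe of Lama2, next to the first, gave -1.70. Lama1 had -2.82, -2.41 and -2.30 in LSC GFP+ cells and -1.73, -1.75 and -1.74 in LSC GFP- cells. The 3 LSC GFP- arrays of Lama1 were nearly equal and all above the LSC GFP+ arrays, with a log2 difference of -0.76 ± 0.21 (adjusted p = 0.296), or 1.70-fold. Without both replicate 1 arrays Lama1 was not called (log2 difference -0.60), and Lama2 was not called by the methods' t-test, an alternative to limma.

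The other laminin chains gave log2 differences between -0.37 and 0.23. Lamb1, the widespread beta chain, was lower on all 3 LSC GFP+ arrays than on any LSC GFP- array without being called (-0.37 ± 0.19, 95% interval -0.81 to 0.08). Lama5, Lamb2 and Lamc1, chains of most epithelial and vascular basement membranes, gave 0.04, 0.00 and 0.23, and Lama4, found in vessels and mesenchyme, gave 0.03 (-0.69 to 0.76). Lamc3 was not well above background on any of the 6 arrays and was not tested.

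**Figure D2:**
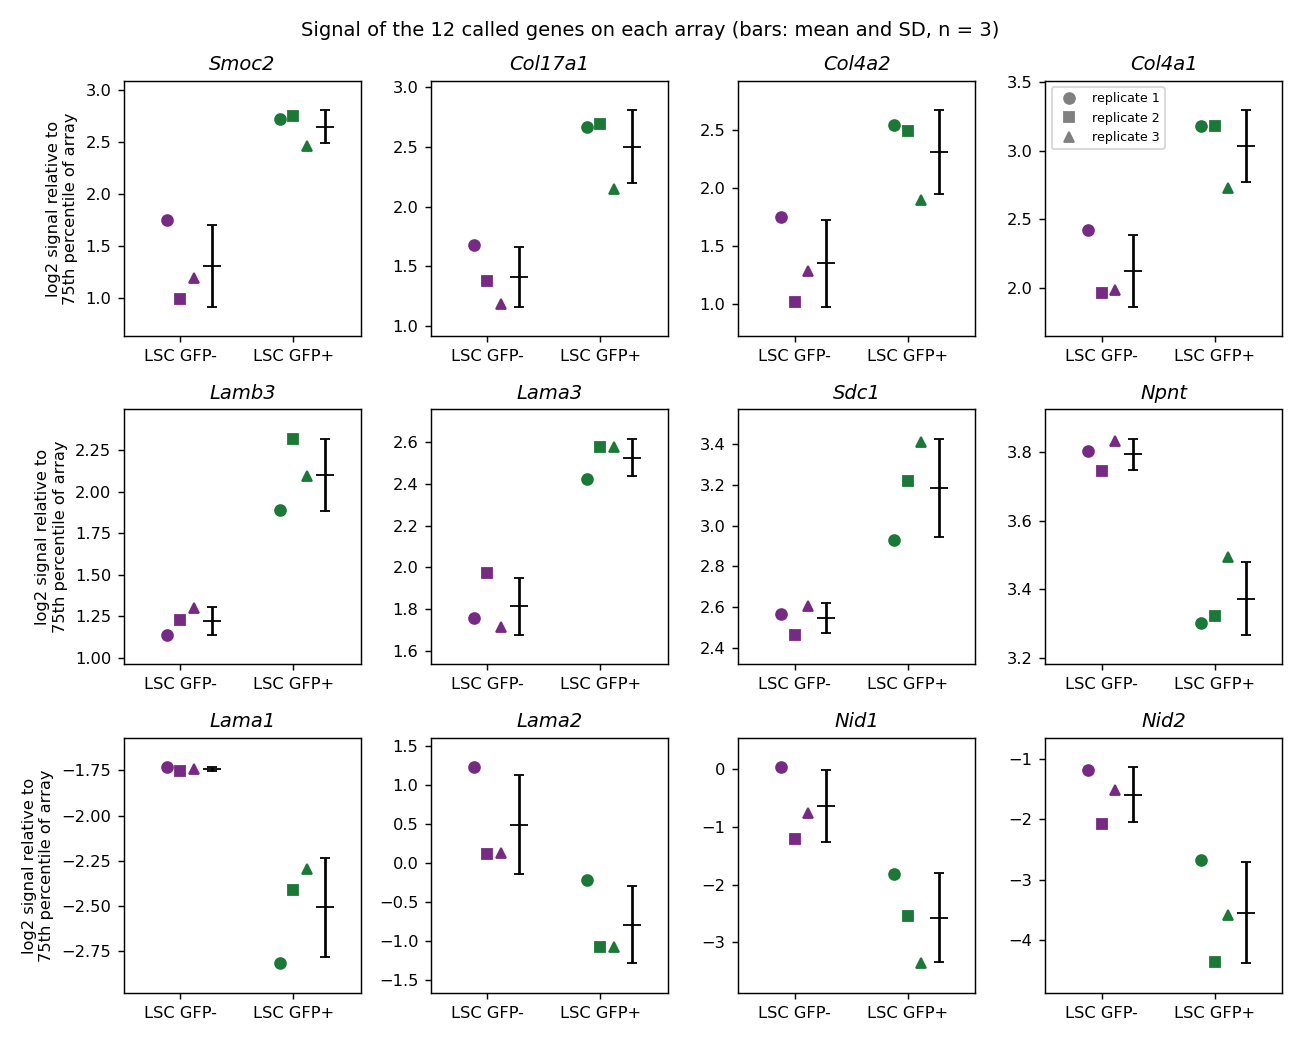
Log2 signal relative to the array's 75th percentile (y axis, its own range in each panel) for the 12 called genes on the 6 arrays, with symbols for the replicate number and black bars for the mean and SD (n = 3). In every panel the 3 arrays of one population lie apart from the 3 of the other.

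The nidogens, which bridge the laminin and the collagen IV networks, were lower in LSC GFP+ cells at every probe, by an amount that depended on the background correction. Nid1 had log2 signals of -1.82, -2.53 and -3.37 in LSC GFP+ cells and 0.03, -1.20 and -0.75 in LSC GFP- cells. Nid2 had -2.68, -4.36 and -3.58 in LSC GFP+ cells and -1.19, -2.09 and -1.52 in LSC GFP- cells (probe at chr14:20630490-20630549, mm9). Every LSC GFP- array was above every LSC GFP+ array for both genes. The Nid2 probe was not well above background on LSC GFP+ replicate 2, so its lowest values are near the limit of the array and its fold is uncertain. It entered the test only through the LSC GFP- arrays, where its signals were higher. The log2 difference was -1.93 ± 0.45 (SE, adjusted p = 0.201) for Nid1, or 3.82-fold. For Nid2 it was -1.95 ± 0.43 (adjusted p = 0.184), or 3.85-fold. With normexp background correction in place of the processed signal, the log2 difference of Nid1 was -1.20 (2.30-fold) and that of Nid2 -0.92 (1.89-fold), beside -1.11 for Lama2, and all 3 were still called. All 3 probes of Nid1 were called lower, the other 2 with log2 differences of -2.62 and -1.81. The probe with -2.62 was not well above background on LSC GFP+ replicate 2. Like that of Nid2, it entered the test only through the LSC GFP- arrays, where its signals were higher.

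Smoc2 and Smoc1, related secreted calcium-binding proteins of the SPARC family that are found in basement membranes, gave differences of opposite sign, and Smoc2 was called. Smoc2 had log2 signals of 2.72, 2.75 and 2.47 in LSC GFP+ cells and 1.75, 0.996 and 1.19 in LSC GFP- cells (probe at chr17:14541664-14541723, mm9). The populations did not overlap, LSC GFP- replicate 1 being the highest of its population. The log2 difference of 1.33 ± 0.25 (SE, adjusted p = 0.129), a 2.52-fold change, was the largest increase among the 35 genes. Smoc1 gave -0.62 ± 0.27 (95% interval -1.25 to 0.01), without overlap and not called.

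Npnt, which encodes nephronectin, a matrix ligand of the integrin made of Itga8 and Itgb1, was lower by a small margin. Its log2 signals were 3.30, 3.32 and 3.49 in LSC GFP+ cells and 3.80, 3.74 and 3.83 in LSC GFP- cells. The populations did not overlap and the log2 difference was -0.42 ± 0.18 (adjusted p = 0.626), a 1.34-fold change, but the call was lost when any one of the 6 arrays was left out, at -0.48 to -0.38. Agrn (agrin) and Fras1, a linker of epithelial and mesenchymal matrix, were higher on every LSC GFP+ array, with log2 differences of 0.43 ± 0.19 and 0.38 ± 0.20 that were not called. At the second probe of Agrn the log2 difference was 0.16 and the populations overlapped. Col18a1, the collagen that releases endostatin, was lower on every LSC GFP+ array (-0.39 ± 0.20, not called), which its second probe did not show (-0.03). Agrn passed the threshold in 6 of 18 alternatives, at log2 differences of 0.43 to 0.54. Hspg2 (perlecan), Frem2 and Col15a1 gave 0.23, -0.43 and -0.27, and 1 of the dimmer probes of Col15a1 was called lower (-0.70 ± 0.29, adjusted p = 0.604). That dimmer probe entered the test only through the LSC GFP- arrays, where its signals were higher. Frem1 was not well above background on any LSC GFP+ array and was above it on 2 of the 3 LSC GFP- arrays. It was at least 1.40-fold higher in LSC GFP- cells and was not tested under the filter used here. In the alternatives that tested it, Frem1 was called lower: above background on at least 1 array, no filter, and without LSC GFP- replicate 2. In the first and the last it entered only through the LSC GFP- arrays, where its signals were higher. Its LSC GFP+ signals were not well above background in any of them, so these calls add nothing to the bound.

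Of the cell surface proteoglycans, Sdc1 rose. Sdc1 encodes syndecan-1, the main syndecan of epithelia, and had log2 signals of 2.93, 3.22 and 3.41 in LSC GFP+ cells and 2.56, 2.46 and 2.61 in LSC GFP- cells (probe at chr12:8799383-8799442, mm9). The populations did not overlap, and the log2 difference was 0.64 ± 0.20 (SE, adjusted p = 0.386), a 1.56-fold change. Without LSC GFP+ replicate 3 it was 0.53 and not called. Sdc4, a syndecan of focal adhesions, gave 0.46 (95% interval -0.13 to 1.05) and was called with the replicate number as a block. Sdc2, Sdc3 and Dag1, the gene of dystroglycan, gave 0.02, -0.07 and 0.06, with intervals that reach from -0.65 to 0.60.

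Where a gene had several probes, most gave the same direction. Of 13 genes with more than 1 tested probe, 10 had all log2 differences on the same side of 0 and 3 (Dst, Plec and Col4a6) had them on both sides. For Nid1 and Lama2 every tested probe was called lower, but 1 of the Nid1 probes entered the test only through the LSC GFP- arrays, where it was higher. Lama3 and Npnt were called at 1 probe, and the second probe had the same sign (0.52 and -0.27).

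**Figure D3:**
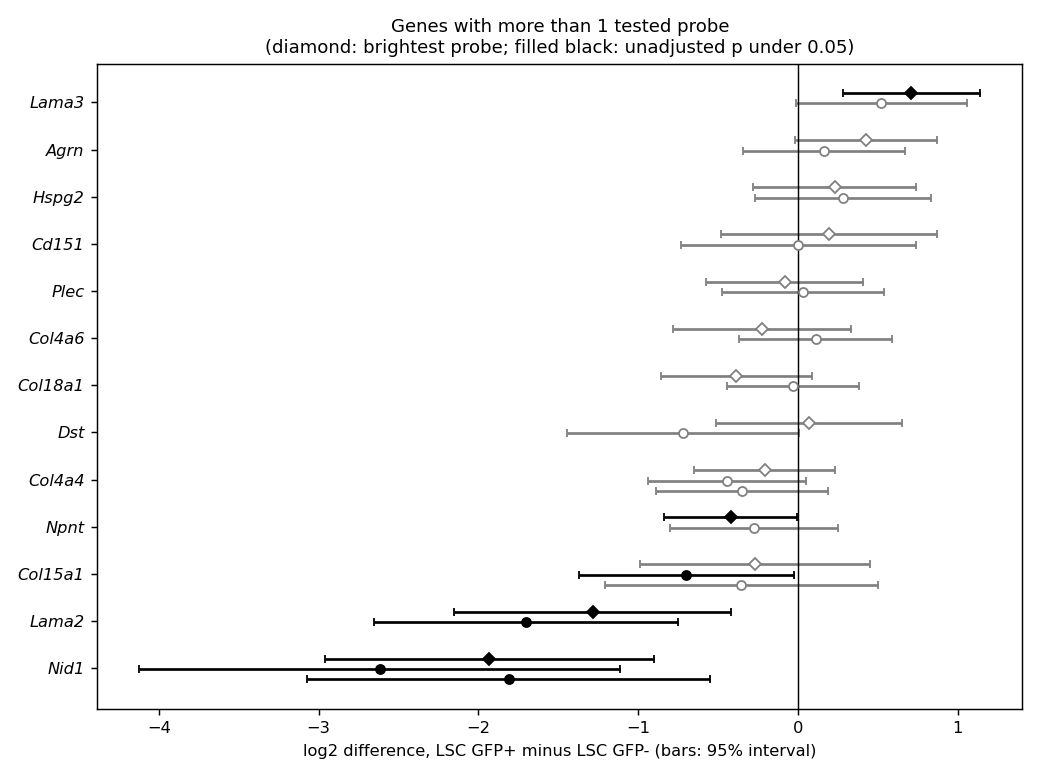
Log2 difference (x axis, LSC GFP+ minus LSC GFP-) with its 95% interval for every tested probe of the 13 genes that have more than 1, diamonds marking the brightest. All probes of Nid1 and Lama2 lie below 0 with intervals that exclude it, while those of Dst, Plec and Col4a6 lie on both sides. The lowest Nid1 point is a probe that entered the test only through the LSC GFP- arrays.

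Of 29 tested genes in 4 related lists, 7 (24.1%) were called, 4 higher and 3 lower, against 7.67% of all genes called in either direction. Of 7 tested receptor partners, Itga3, the alpha subunit of a laminin-binding integrin, was higher (log2 difference 0.60 ± 0.18) and Itga1, the alpha subunit of a collagen-binding integrin, was lower (-1.28 ± 0.21). Itga6 and Itgb4, which form the hemidesmosome integrin, gave 0.25 and 0.13. Of 9 tested genes of collagen IV assembly, Pxdn, the peroxidase that crosslinks the collagen IV network, was higher (0.67 ± 0.25) and 8 were not called, among them Serpinh1, the collagen chaperone, at 0.11. Of 7 other tested basement membrane genes, Tinagl1 (0.96 ± 0.18) and Vwa1 (0.71 ± 0.25) were higher. Sparc, a collagen-binding matrix protein, and Egfl6 were lower (-1.02 ± 0.35 and -1.01 ± 0.41), although their populations overlapped. None of the 6 enzymes that put sugars on dystroglycan was called. None of the genes of these 4 lists passed adjustment, the lowest adjusted p being 0.107 for Itga1.

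Markers of cell types also differed between the populations. Of 10 tested stromal markers 6 were lower in LSC GFP+ cells, among them Col1a1, Col1a2 and Col3a1 (log2 differences of -2.18, -2.15 and -1.97) and Pdgfra (-2.36), whose probe was not well above background on LSC GFP+ replicate 2, and Dcn was higher (1.19). All 6 tested smooth muscle markers were lower, led by Acta2, Myh11, Actg2 and Des (-2.13, -2.01, -1.78 and -1.68). The summed linear signal of the smooth muscle markers, in units of the array's 75th percentile, was 6.21 to 10.0 on the LSC GFP+ arrays and 19.6 to 37.7 on the LSC GFP- arrays, and that of the stromal markers 19.5 to 25.8 and 21.9 to 62.4. The ranges of the stromal sum overlapped, and the sum includes Dcn, the brightest stromal marker on the LSC GFP+ arrays (log2 signals of 3.37 to 3.97). Twist1 was not well above background on any LSC GFP+ array. Twist1 and Pdgfra, both among the 6 lower stromal markers, entered the test only through the LSC GFP- arrays, where their signals were higher. Postn was above background on 2 of the LSC GFP- arrays and Myocd on 1, and neither on an LSC GFP+ array. LSC GFP- replicate 1, which had the highest stromal and smooth muscle sums, also had the highest signals of Nid1, Nid2 and Lama2. It was likewise the highest array for the neuronal marker Tubb3 (4.78) and the basal marker Ngfr (1.88), but not for the other tested glial and neuronal markers.

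Of 6 tested basal markers 4 were higher in LSC GFP+ cells, with log2 differences of 2.05 for Dsc3, 1.18 for Krt14, 0.70 for Krt5 and 0.52 for Krt15, and the summed signal was 207 to 227 against 153 to 167. Dsg3 was at background on all 6 arrays, and Trp63 gave 0.11 at its brightest probe, while the next was called higher (0.62, without overlap) and a dimmer one gave -0.73 and was not called. Of the luminal markers, Prom1 was lower (-0.53), and Krt8 and Krt18 gave -0.30 and -0.22 and were not called. No endothelial, leukocyte, or glial and neuronal marker was called among 4, 6 and 4 tested. The 4 glial and neuronal ones gave log2 differences of -1.30 (Tubb3) to -0.10. Itgam, Csf1r and Elavl4 were read at bright probes, with log2 signals of 4.59 to 8.17 on the 6 arrays, while every other probe of these genes had negative log2 signals. The other tested probes of Itgam and Csf1r were not called either, and that of Elavl4 was not tested. Endothelial markers are given because vessels also make Col4a1 and Col4a2, and the lineage antibodies of the sort included CD31, the product of Pecam1. Their summed signal came almost wholly from 1 probe of Kdr, with log2 signals of 2.44 to 2.64 on all 6 arrays, and is not used. Cdh5, Tie1 and the second probe of Kdr were well above background on 1 LSC GFP- array each, and Emcn on 2, with none of the 4 above background on an LSC GFP+ array. LSC GFP- replicate 3 had the highest signal of the 6 arrays for each of these 4 probes and for Pecam1. The part of these cell types in the differences of the basement membrane genes was not tested. With both replicate 1 arrays left out, an alternative added once the values were known, the 7 higher genes were called again and 3 lower genes were left (Nid1, Nid2 and Lama2), beside stromal and smooth muscle medians of -0.85 and -1.49. Over the whole array that fit called 8.26% of the probes tested, and 25.6% of those calls were higher in LSC GFP+ cells.

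**Figure D4:**
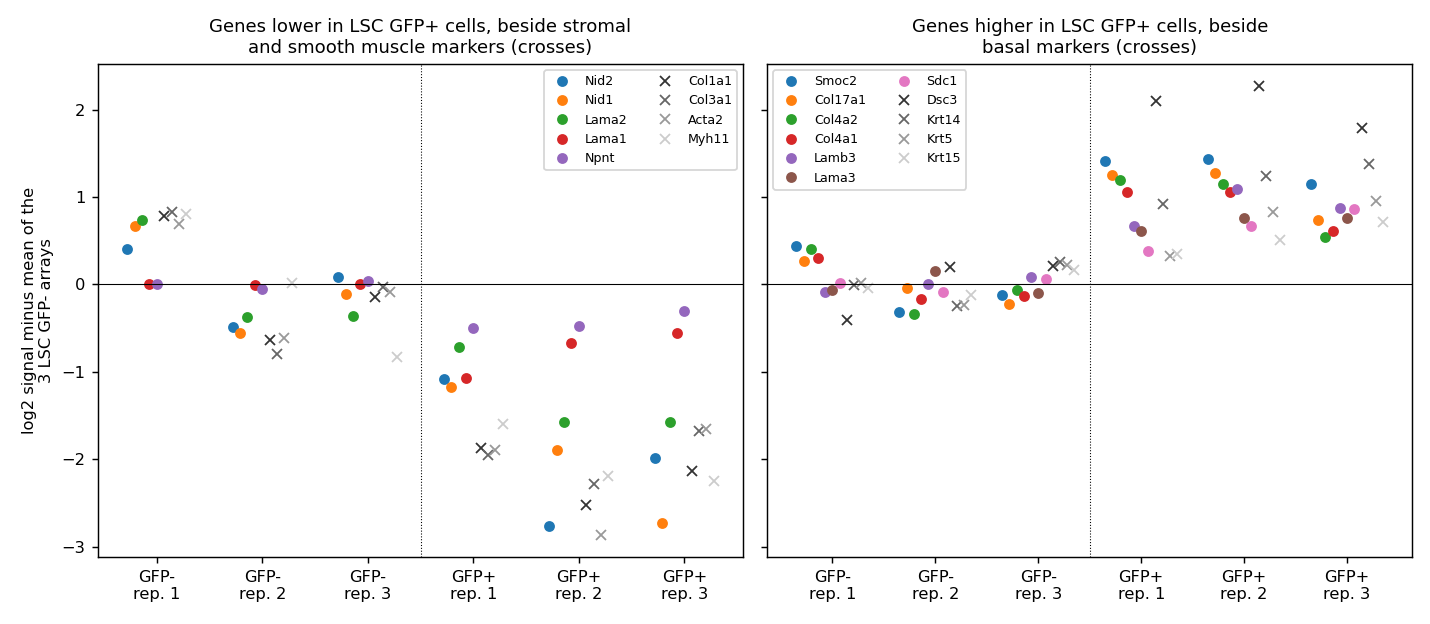
Log2 signal minus the mean of the 3 LSC GFP- arrays (y axis) on each of the 6 arrays (x axis). The left panel has the 5 genes called lower, beside 4 markers picked from the stromal and smooth muscle lists (Col1a1, Col3a1, Acta2 and Myh11). The right panel has the 7 genes called higher, beside the 4 called basal markers. Among the markers not drawn are Dcn, a stromal marker that was higher, and the uncalled basal markers Trp63 and Ngfr. Circles are the basement membrane and hemidesmosome genes and crosses the markers. On the left, Nid1, Nid2 and Lama2 are highest on LSC GFP- replicate 1, as the 4 markers drawn there are. Npnt and Lama1 hardly vary between the LSC GFP- arrays.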

How the data were processed

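RNA of 3 LSC GFP+ and 3 LSC GFP- samples was amplified, labelled with Cy3 and hybridised by the authors to Agilent SurePrint G3 Mouse arrays of a single slide, scanned together. Per the file headers, the deposited intensity values are processed signals of Feature Extraction 11.0.1.1, background-subtracted, on a linear scale and not normalized between arrays. The table of the whole series holds the same deposited intensity values rounded.

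Each signal was divided by its array's 75th percentile and log2-transformed. Outlier spots (123 to 154 per array) were left out and the spots of a probe averaged. Between 36651 and 42123 probes per array were well above background, and no spot was saturated. Testing was limited to the 37005 probes that stood well above background throughout 1 or both populations, and used the moderated two-sided test of limma 3.58.1 (R 4.3.3). The number of arrays limits the precision. Each gene is represented by its brightest tested probe, and called at an unadjusted p under 0.05. The procedure was tested on simulated data.

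The named genes are those called or without overlap between the populations, all collagen IV and hemidesmosome genes tested, genes with a called probe, and up to 4 called genes of each other list by size, plus Dcn, Trp63 and a few uncalled ones given for comparison after their values were seen. The genes and lists were chosen with earlier results of these data known. Of the 53 probes, 52 matched the RefSeq symbol of GRCm38.p6 by accession. Probe positions are those of mm9 in the array design, and exons were not looked up. A fold given as "at least" sets the brighter population against the higher of the dim probe's own signal and the lowest signal well above background on each array.

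Arrays of the same replicate number in the labels deviated together from their population means (correlations across probes of 0.43, 0.28 and 0.67), so the samples were treated as paired by number in an alternative fit with the number as a block. The other alternatives were normexp (offset 50), quantile and median scaling, the rounded values, an intensity trend, the methods' t-test, 3 filters on dim probes, the mean over probes, each probe on its own, and each array left out. The study's other experiments were not analysed here. One marker gene is not reported here.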

Additional observations from a re-analysis of the deposited data

How the results depend on the processing

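Col4a1, Col4a2, Col17a1, Lama3, Lamb3, Smoc2 and Nid1 kept their direction and their call under all 18 alternatives run on them, and Nid2 under the 17 that tested it. Npnt kept its call in 7 of 18, and Lama1, Lama2 and Sdc1 in 17 each. The number of these genes called higher was 7 as reported and stayed between 7 and 9, and the median log2 difference moved between -0.05 and 0.15. The number called lower was 9 with each probe counted on its own (51 probes) and 3 without both replicate 1 arrays, against 5 as reported. Of all probes tested, 8.26% were called in either direction without both replicate 1 arrays, against 7.90% as reported. Leaving out 1 array at a time gave 7 higher throughout, 4 to 5 lower, medians of -0.05 to 0.06 and 2283 to 4061 probes called over the array (5.94% to 10.9%). The genes were not always the same. Without LSC GFP+ replicate 3, Agrn was called higher and Sdc1 was not. Npnt was called lower in none of these fits, while Col4a3, Smoc1, Frem1 and Frem2 were each called lower in 1 of them. Col4a3 and Frem1 entered those fits only through the LSC GFP- arrays, where their signals were higher.

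Under the block on replicate number, which uses the pairing, 5480 probes (14.8%) were called over the array instead of 2925 (7.90%). Of the basement membrane and hemidesmosome genes, 9 were called higher and 6 lower (42.9% together) instead of 7 and 5 (34.3%). Agrn, Sdc4 and Col18a1 were added, and none of the genes passed adjustment. The methods' t-test called 8 of these genes higher and 5 lower (37.1% together), 2798 probes over the array (7.56%) and 0 after adjustment.

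With normexp background correction the log2 differences of Nid1 and Nid2 fell to -1.20 and -0.92 and both stayed called. Of the 35 genes, 11 changed sign under some alternative, none of them called there. Dst was -0.33 as the mean over probes, Lamb2 -0.0002 with normexp background correction, and Sdc3 0.0000 after scaling by the array median. Quantile normalization gave -0.013 for Lama5, -0.031 for Lamb2 and -0.0050 for Dag1. Without both replicate 1 arrays Col4a5 was 0.14, Col4a6 0.014 and Sdc3 0.27. With 1 array left out at a time, Lama4 ranged from -0.23 to 0.36, Col4a5 from -0.23 to 0.14, Sdc3 from -0.23 to 0.14, Plec from -0.19 to 0.041, Sdc2 from -0.15 to 0.19, Lamb2 from -0.091 to 0.14, Dst from -0.069 to 0.32, Lama5 from -0.040 to 0.13, Dag1 from -0.038 to 0.18 and Cd151 from -0.028 to 0.43. The causes were not tested. Dim signals limit the values of Col4a3 and Nid2, of the dimmer probes of Col15a1 and of 1 further probe of Nid1, which were not well above background on every array.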
